A study of Homo sapiens with 12 samples.

Results

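The keratin genes form a pair of dense clusters in the human genome, and 55 protein-coding members were found among 20162 protein-coding genes of the hg19 annotation. Members were the genes whose symbol is KRT followed by a number, 27 on 12q13 (the type II keratins and the type I gene KRT18) and 28 on 17q21 (type I keratins). Peak pairs whose midpoint lay within 5 kb of a member's gene body were counted as belonging to it. The data are ChIP-exo lists of peak pairs, in which an exonuclease trims immunoprecipitated DNA up to the cross-linked protein and a peak on each strand marks its borders. All libraries came from DCIS.COM, a single basal-type cell line that models ductal carcinoma in situ of the breast, grown in DMEM/F12 with horse serum. Control cells carried a non-silencing construct (the labels give the treatment as Non-scrambled control) and knockdown (KD) cells a short hairpin RNA against BCL9. Control cells gave 3 libraries with an antibody against STAT3 phosphorylated on a serine (S727, here pSTAT3), 3 with an antibody against BCL9 and 1 against the insulator protein CTCF. KD cells gave 2 pSTAT3 and 2 BCL9 libraries. The loss of BCL9 protein and the identity of the cells cannot be checked from peak lists.

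Keratins are the intermediate filament proteins of epithelia, and each filament is built from an acidic type I and a basic type II partner. KRT5 and KRT14 pair in basal cells of stratified epithelia and in the basal or myoepithelial layer of the breast, KRT8 and KRT18 pair in simple and luminal epithelia, and KRT6, KRT16 and KRT17 are induced in activated or wounded keratinocytes. Many other members serve the hair shaft or the inner root sheath of the hair follicle. STAT3 is a transcription factor that acts downstream of cytokine receptors, and BCL9 is known as a co-activator in Wnt signalling.

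Peak pairs of replicate libraries were widened to 100 bp windows, and overlapping windows were merged across the libraries of a group. Merged stretches that held windows of at least 2 libraries were kept as regions. A region with both a pSTAT3 and a BCL9 region of the same condition is called co-occurring. In control cells 16 co-occurring regions lay near 10 keratin genes, and the sequences below are shown because they hold the best-ranked control pSTAT3 window of the best such region of each gene. Of 11 windows chosen, 2 (KRT15/KRT19 and KRT17) overlapped untranslated exons and are not printed. KRT39-AP1 and KRT5-AP1 are further co-occurring windows, added after their content was seen because they hold the AP-1 string TGANTCA. Each sequence is the + strand of hg19, read 5′ to 3′, and capitals mark the AP-1 string.
KRT39-distal: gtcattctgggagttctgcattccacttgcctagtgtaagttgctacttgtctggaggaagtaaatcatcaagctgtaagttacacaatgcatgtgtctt
KRT39-AP1: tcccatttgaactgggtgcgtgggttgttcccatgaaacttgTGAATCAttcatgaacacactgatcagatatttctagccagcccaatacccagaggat
KRT7-intron: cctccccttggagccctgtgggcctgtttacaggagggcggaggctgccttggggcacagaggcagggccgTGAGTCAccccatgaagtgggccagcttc
KRT32-intron: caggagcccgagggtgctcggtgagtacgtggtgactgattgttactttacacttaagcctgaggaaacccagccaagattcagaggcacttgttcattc
KRT6B-downstream: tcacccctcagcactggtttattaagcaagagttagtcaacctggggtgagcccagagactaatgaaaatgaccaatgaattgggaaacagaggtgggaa
KRT86-intron: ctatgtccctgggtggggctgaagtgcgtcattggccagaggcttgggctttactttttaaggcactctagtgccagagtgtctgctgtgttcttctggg
KRT86-KRT81: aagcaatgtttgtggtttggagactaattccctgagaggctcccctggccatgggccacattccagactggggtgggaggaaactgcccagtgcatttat
KRT5-promoter: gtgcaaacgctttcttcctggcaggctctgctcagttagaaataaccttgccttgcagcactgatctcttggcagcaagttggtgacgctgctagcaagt
KRT5-AP1: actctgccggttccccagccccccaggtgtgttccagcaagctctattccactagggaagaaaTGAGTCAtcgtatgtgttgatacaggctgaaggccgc
KRT39-distal (chr17:39113195-39113294) and KRT39-AP1 (chr17:39110264-39110363) lie between genes, beyond the 3′ end of KRT39. KRT7-intron (chr12:52637967-52638066) is in an intron of KRT7, and KRT32-intron (chr17:39621202-39621301) in an intron of KRT32. KRT6B-downstream (chr12:52835568-52835667) lies past the 3′ end of KRT6B, towards KRT75. KRT86-intron (chr12:52674230-52674329) and KRT86-KRT81 (chr12:52674844-52674943) fall in a long annotated intron of KRT86. KRT5-promoter (chr12:52914323-52914422) and KRT5-AP1 (chr12:52915057-52915156) lie just upstream of KRT5.

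The AP-1 string, bound by FOS and JUN proteins and searched on both strands, was in 4 of the 16 co-occurring windows (25%), near KRT7, KRT5, KRT39 and KRT17, against 28.3% of 8159 such windows in the genome. At 1 kb to the side the share was 6.25% for the 16 and 3.17% for the genome. Of the 46 keratin windows with control pSTAT3 but no control BCL9 region, 11 (23.9%) held it and 10.9% did 1 kb to the side, against 33.1% and 3.24% of 26954 in the genome. The STAT string TTCCNGGAA was in 0 of the 16 and in 1 of the 46, in an intron of KRT8, while 0.613% and 0.72% of the genome's windows held it. The TEAD string GGAATG was in 3 of 16 (18.8%, genome 13.2%), 2 of which are KRT39-distal and KRT86-KRT81, and the C/EBP string TTGCGCAA was in none of the 16 (genome 0.196%). With 16 windows each one counts for several percentage points.

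Per Mb, every library listed more peak pairs in the windows around keratin genes than in those around all protein-coding genes. The windows around the 55 genes cover 0.991 Mb. The control pSTAT3 libraries listed 204, 126 and 397 peak pairs there and the KD pSTAT3 libraries 433 and 548. The control BCL9 libraries listed 48, 57 and 160, the KD BCL9 libraries 140 and 375, and the CTCF library 286. Whole lists ran from 24728 to 493174 peak pairs, and the counts of libraries with lists of different length are not comparable as they stand. Per Mb, keratin windows held 2.62 to 4.29 times as many pSTAT3 peak pairs as the windows of all protein-coding genes, and 2.64 to 5.81 times as many BCL9 peak pairs, whereas the CTCF ratio was 1.53. When each list was cut to its 24728 top peak pairs the ratio was 4.77 to 6.51 for pSTAT3, 4.599 to 7.89 for BCL9 and 1.93 for CTCF. All 10 pSTAT3 and BCL9 libraries thus lay above the CTCF library at both list lengths. The depth of reads behind the lists is unknown, and no interval is given for these ratios. Keratin genes are short (median 7098 bp, all genes 27220 bp), so the 5 kb flanks make up more of their windows. The part of gene length in these ratios was not tested. The members were also unequal, and 25 of the 55 had no region, as defined above, in any group.

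**Figure D1:**
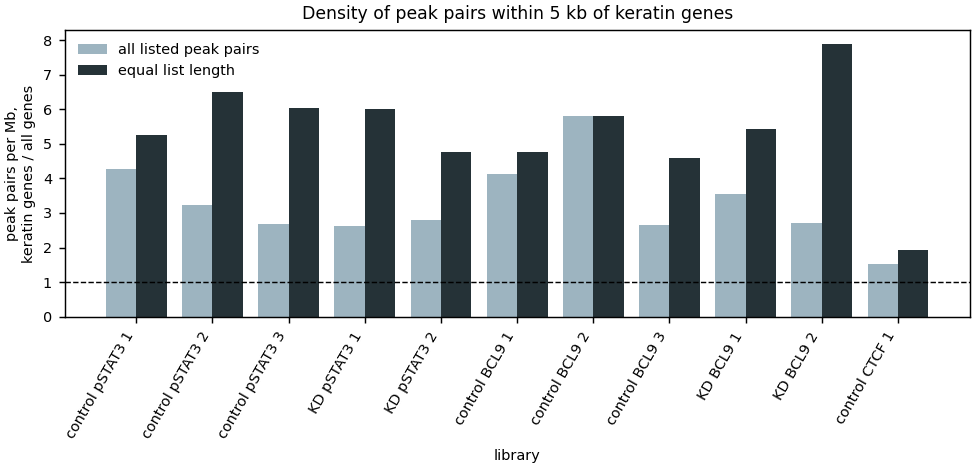
Ratio of peak pairs per Mb within 5 kb of keratin genes to peak pairs per Mb within 5 kb of all protein-coding genes, for each of 11 libraries, with all listed peak pairs (light bars) and with its 24728 top peak pairs (dark bars). Every bar is above 1 (dashed line), and the CTCF library is lowest with 1.53 and 1.93.

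With all listed peak pairs, the shares of members with a pSTAT3 or BCL9 region in control cells were near those of all genes. With lists of equal length the pSTAT3 share was above that of all genes (25.5% against 13.5%), so the comparison depends on list length. A control pSTAT3 region was found near 22 of 55 members (40%, all genes 43.6%), a control BCL9 region near 10 (18.2%, all genes 19.7%) and a co-occurring control region near 10 (18.2%, all genes 13.8%). In KD cells the counts were 28 for pSTAT3 (50.9%, all genes 57.7%), 22 for BCL9 (40%, all genes 32.3%) and 18 for co-occurring regions (32.7%, all genes 21.5%). Keratin genes are short, with a median length of 7098 bp against 27220 bp for all genes, and the part of gene length in these shares was not tested. Without control BCL9 replicate 3 the control BCL9 and co-occurring counts both fell to 4. With a single KD library, where any region in it counts, the KD pSTAT3 count was 48 or 50, and the KD BCL9 count was 46 without replicate 1. With lists of equal length 14 members kept a control pSTAT3 region (25.5%, all genes 13.5%), 9 a control BCL9 region (16.4%, all genes 13.6%) and 8 a co-occurring control region (14.5%, all genes 6.04%). The matching KD counts were 7 (12.7%, all genes 10.5%), 9 (16.4%, all genes 10.3%) and 6 (10.9%, all genes 4.26%). Every member had a listed peak pair in at least 1 of the 10 libraries and 9 had one in all 10 (KRT7, KRT86, KRT81, KRT5, KRT8, KRT39, KRT15, KRT19 and KRT17), while 25 members had no region in any group.

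**Figure D2:**
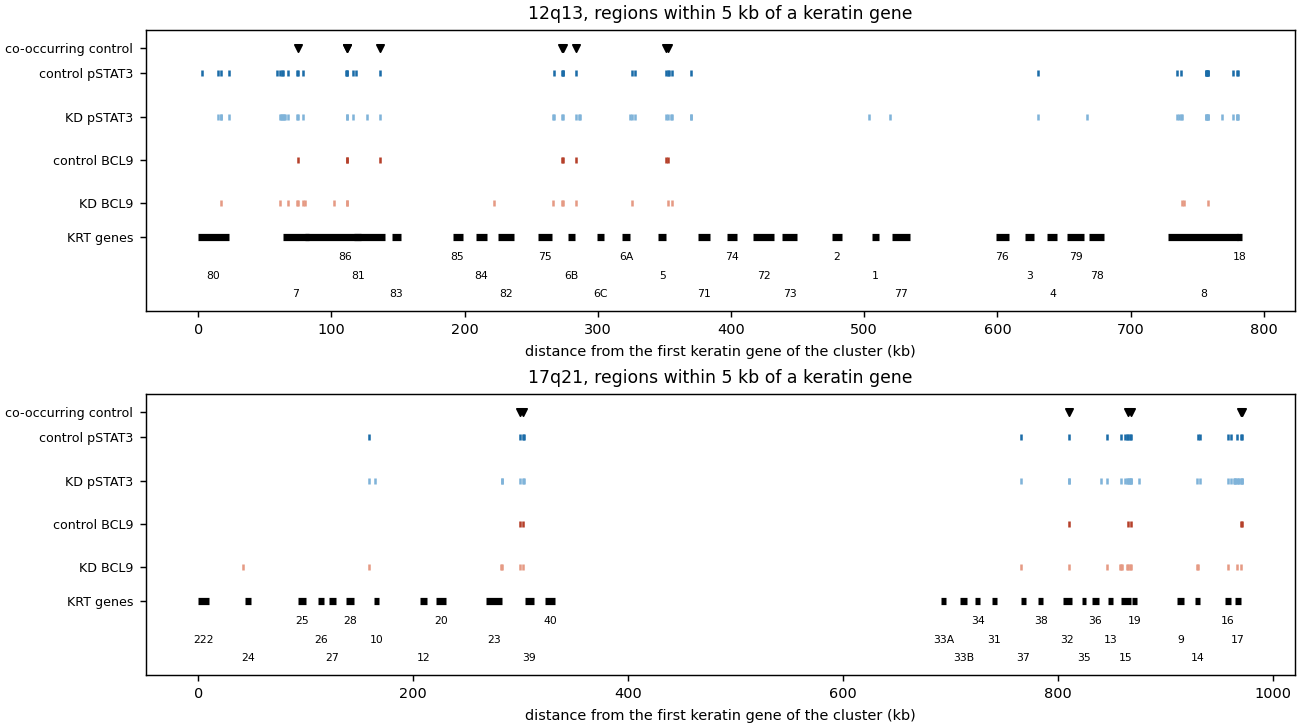
Regions within 5 kb of a keratin gene along the 12q13 cluster (top) and the 17q21 cluster (bottom), in kb from the first keratin gene. Ticks are regions of each group, triangles the 16 co-occurring control regions and black bars gene bodies (the number after KRT is written under each gene). The stretches from KRT74 to KRT78 on 12q13 and from KRT222 to KRT20 on 17q21 hold few regions.

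For comparison, 43.6% of all protein-coding genes had a control pSTAT3 region, 19.7% a control BCL9 region and 13.8% a co-occurring control region. By role, all 3 basal layer genes (KRT5, KRT14 and KRT15) had a control pSTAT3 region and 2 (KRT5 and KRT15) a co-occurring one. Of the 6 activated and companion layer genes 5 had a control pSTAT3 region, all except KRT6C, and 2 (KRT6B and KRT17) a co-occurring one. Of the 7 simple epithelial genes 5 had a control pSTAT3 region and 2 (KRT7 and KRT19) a co-occurring one. Of the 13 genes of differentiating or site-specific stratified epithelia 3 (KRT3, KRT10 and KRT13) had a control pSTAT3 region and none a control BCL9 region. Of the 8 inner root sheath genes only KRT71 had any region, for pSTAT3. Of the 17 hair and nail genes 5 had a control pSTAT3 region and 4 (KRT39, KRT32, KRT81 and KRT86) a co-occurring one. KRT222, which lacks a role in these lists, had none. Among neighbouring or similar families, 9 of 94 keratin-associated protein genes (9.57%) had a control pSTAT3 region and 0 a BCL9 region in either condition. In KD cells 32.3% of all genes had a BCL9 region. In the epidermal differentiation complex on 1q21 21 of 53 genes (39.6%, near the share of all genes) had a control pSTAT3 region. A co-occurring one was near 12 (22.6%). The list of keratin anchorage proteins and epithelial regulators included desmosome and hemidesmosome components, TP63, KLF and GRHL factors. Of its 23 genes 22 (95.7%) were near a control pSTAT3 region and 10 (43.5%) near a co-occurring one. Regions were counted over the gene body and 5 kb on each side, so longer genes had more sequence to hold one. The part of gene length in the counts of these lists was not tested, and neither were the shares.

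Signal per gene was compared between genes as the summed signal of its peak pairs in parts per 1000000 of the signal of the whole list (ppm), divided by the kb of gene body plus reach. Over the 5 libraries of an antibody, both conditions together, KRT39 held 14.5 ± 3.71 ppm per kb for pSTAT3 (SD, n = 5), KRT19 14.3 ± 1.95 and KRT15 11.6 ± 1.15. For BCL9 the same 3 genes led, with KRT19 at 27.6 ± 13.6, KRT15 at 24.03 ± 11.1 and KRT39 at 23.95 ± 5.65. Their ranges overlapped for both antibodies, so their order among themselves is not resolved. KRT15, a basal keratin, and KRT19, the smallest keratin of simple epithelia, are neighbours that share much of their reach, and many of the same peak pairs count for both. KRT6B followed for pSTAT3 with 6.44 ± 1.31, and KRT17 with 6.01 ± 2.10. All 5 pSTAT3 libraries of KRT39, KRT19 and KRT15 (lowest 10.4) lay above all 5 of KRT6B and KRT17 (highest 9.01). KRT5 held 3.48 ± 1.58 per kb for pSTAT3, and KRT14, its partner, 1.12 ± 0.70.

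**Figure D3:**
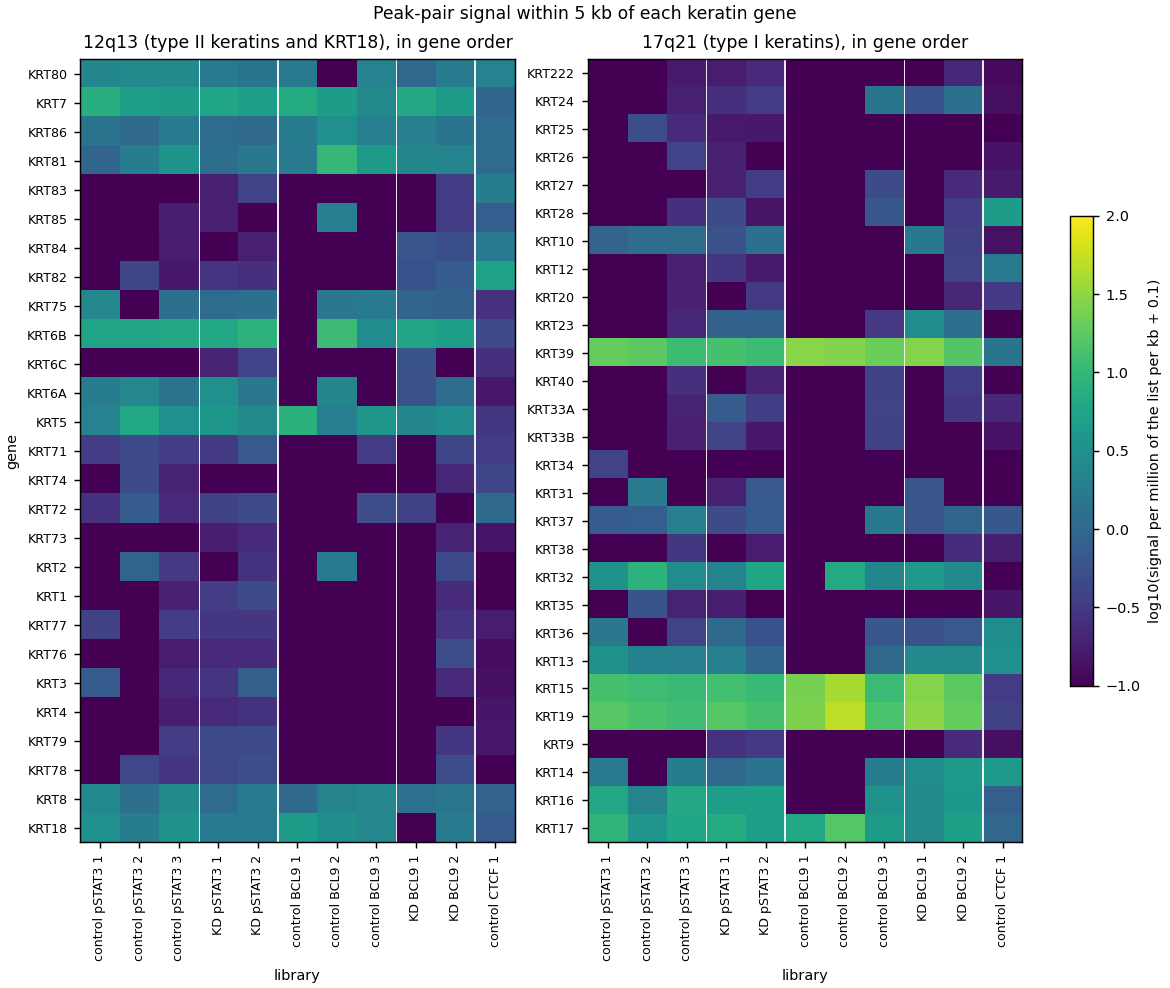
Summed peak-pair signal in ppm of the list per kb (log10 after adding 0.1) within 5 kb of each keratin gene in the 11 libraries, with genes in chromosomal order for 12q13 (left) and 17q21 (right). KRT39, KRT15 and KRT19 are the brightest rows in the pSTAT3 and BCL9 columns and not in the CTCF column, and most of the differentiation and hair keratins are dark.

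By median rank in the control pSTAT3 libraries the 2 KRT39 regions stood above the 14 other co-occurring ones. In the control BCL9 libraries the first stood highest (median rank 93), and regions at KRT15 (1717) and at KRT86 and KRT81 (2468) ranked above the second (3168). The region at chr17:39112999-39113702, which holds the KRT39-distal sequence, had 28, 31 and 105 tags (the unit of signal in each library, for the best peak pair) in the control pSTAT3 libraries and 103 and 57 in the KD pSTAT3 libraries. It had 17, 46 and 96 tags in the control BCL9 libraries, 92 and 81 in the KD BCL9 libraries and none in the CTCF library. Among control libraries its best rank was 157 of 374089 in control pSTAT3 replicate 3 and 28 of 148755 in control BCL9 replicate 3, and in the KD BCL9 libraries it ranked 17 and 27. The second region, chr17:39110066-39110601, had 31, 19 and 33 tags for control pSTAT3, 50 and 66 for KD pSTAT3, 6, 16 and 28 for control BCL9 and 40 and 45 for KD BCL9. KRT39 and its neighbour KRT40 are hair keratins, set apart from the other hair keratins of 17q21 by the keratin-associated protein genes. The regions lay 9850 and 12867 bp downstream of the KRT39 start, and the KRT39-AP1 sequence belongs to the second.

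Of the other co-occurring regions most lay at promoters or in introns, and 2 at KRT6B lay past its 3′ end. A region across the start of KRT15 (chr17:39677805-39679228) had 14, 16 and 28 tags for control pSTAT3, 42 and 35 for KD pSTAT3, 9, 20 and 34 for control BCL9 and 56 and 46 for KD BCL9. It was in all 10 libraries. At the KRT17 start (chr17:39780786-39781432) the control pSTAT3 libraries had 13, 10 and 21 tags, the KD pSTAT3 libraries 25 and 17, the control BCL9 libraries 7, 22 and 21 and the KD BCL9 libraries 8 and 18. KRT17 is the activated keratin also made by basal-like breast tumours. The KRT5 promoter (chr12:52914067-52914576) had 4, 18 and 16 tags for control pSTAT3, 23 and 12 for KD pSTAT3, 0, 9 and 16 for control BCL9 and 10 and 5 for KD BCL9. The KRT7 intron region (chr12:52637613-52638200) had 16, 20 and 33 tags for control pSTAT3 and 9, 12 and 7 for control BCL9. KRT7 is a luminal and glandular keratin. In the KD libraries that region had 28 and 32 tags for pSTAT3 and 9 and 26 for BCL9.

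Of the 16 co-occurring control regions 7 (43.8%) lay within 1 kb of a start site, against 11.3% of 4489 co-occurring control regions near any protein-coding gene. The 62 control pSTAT3 regions near keratins were at promoters in 38.7%, against 17.6% near any gene. The part of gene length in these shares was not tested. By the position of the midpoint 7 of the 16 were intronic and 9 intergenic. Every one of the 16 control BCL9 regions near keratins also held a control pSTAT3 region (near any gene 71.5% did). In KD cells 30 of 42 BCL9 regions did (71.4%, near any gene 66.1%). Of the pSTAT3 regions 25.8% in control and 34.5% in KD cells held a BCL9 region, against 21.6% and 21.4% near any gene. These shares are descriptions of a small number of regions and were not tested.

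**Figure D4:**
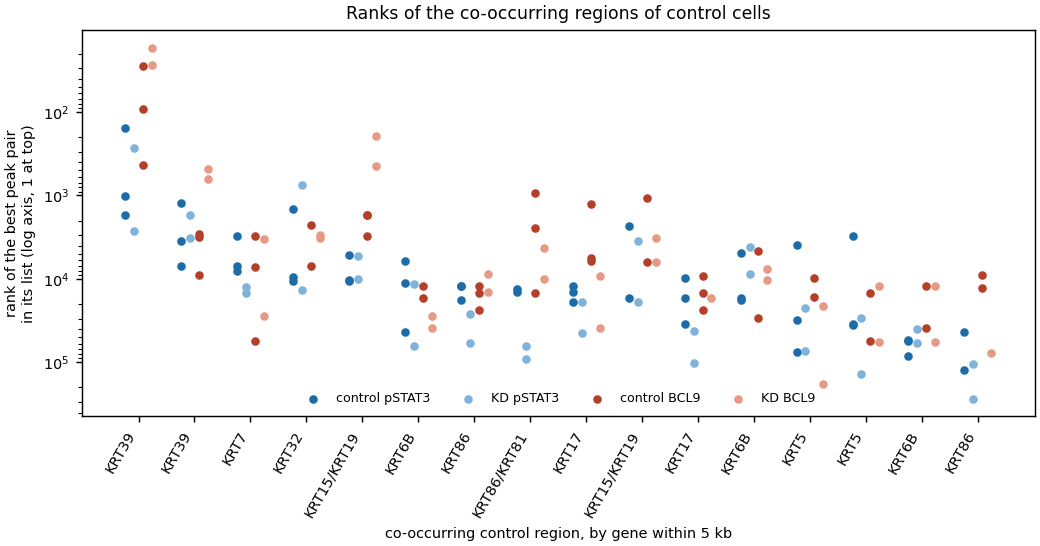
Rank of the best peak pair in its list (log axis, 1 at the top) for the 16 co-occurring control regions, ordered by median control pSTAT3 rank and named by the genes within 5 kb. Points are libraries, and libraries with no peak pair in a region are not drawn. The first KRT39 region lies highest for BCL9, with ranks of 17 and 27 in the KD libraries.

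KRT8 and KRT18, the luminal pair, had called pSTAT3 regions and no called BCL9 region in control cells, while their summed signal was not called different between the antibodies. KRT8 had 12 control pSTAT3 regions and KRT18 had 4, some of them shared because the annotated KRT8 gene runs up to KRT18. Neither had a control BCL9 region, but the control BCL9 lists were shorter on average. KRT8 held 150, 73.4 and 160 ppm in the control pSTAT3 libraries and 62.3, 130 and 146 in the control BCL9 libraries, which overlap. Over both conditions the log2 difference of pSTAT3 from BCL9 was 0.09 ± 0.40 (SE, limma adjusted p 0.95) for KRT8 and 0.21 ± 0.51 (0.91) for KRT18. With lists of equal length KRT8 was among 745 of 3600 genes called lower for pSTAT3. One pSTAT3 region lay across the annotated KRT8 start inside KRT18 (chr12:53343457-53343960), with 4, 0 and 19 tags for control pSTAT3, 13 and 20 for KD pSTAT3, 0, 13 and 8 for control BCL9 and none for KD BCL9. Tag numbers there were low, and most regions were listed in 2 of the 3 control pSTAT3 libraries, replicates 1 and 3. The start of KRT16 (chr17:39769003-39769514) had 11, 11 and 46 tags for control pSTAT3 and 0, 0 and 24 for control BCL9, so it counted as pSTAT3 alone in control cells. In KD cells it had 30 and 38 tags for pSTAT3 and 11 and 27 for BCL9 and counted as co-occurring.

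As at most co-occurring control regions near any gene, no strong CTCF peak lay in those near keratin genes. A CTCF window overlapped 4 of the 16 co-occurring control regions (25%), against 29.2% near any gene, and in each of these regions the CTCF library had at most 5 tags. Of the 24728 strongest CTCF peak pairs 20 lay near keratin genes. The best, at position 39736005 of chromosome 17 past the 3′ end of KRT14, had 124 tags and ranked 2727. Others were near KRT28, KRT36 and KRT13, KRT82, KRT8, KRT80 and KRT39. None of the 16 co-occurring control regions held a strong CTCF peak pair (0.821% in the genome). A KD BCL9 region at KRT82 (113 CTCF tags) and a KD pSTAT3 region at KRT8 (104 CTCF tags) did. Of the 30 co-occurring KD regions 36.7% held a CTCF window, against 25.9% near any gene.

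The comparison of KD with control cells asks whether pSTAT3 and BCL9 binding changes when BCL9 is reduced, and for the keratin genes it gave no call. Signal in ppm within reach of each gene was compared on the log2(ppm + 10) scale with limma over all genes that had a peak pair in at least 3 of 5 libraries. For pSTAT3 1 of 17348 genes was called higher (0.00576%) and 6 lower (0.0346%) at an adjusted p below 0.05, and 0 of 42 tested keratin genes. At an unadjusted p below 0.05 stood 630 genes, 2 of them keratins (KRT23 and KRT33A). For BCL9 0 of 12065 genes were called higher (0%) and 1 lower (0.00829%), and 0 of 22 tested keratins, with 652 genes and 1 keratin (KRT23) at an unadjusted p below 0.05. The other 13 keratins for pSTAT3 and 33 for BCL9 were listed in too few libraries. The median log2 difference of the tested keratins was 0.10 for pSTAT3 (all genes 0.09) and 0.34 for BCL9 (all genes 0.54). Centring each library on its median gene turned the BCL9 median of the keratins to -0.94 and that of all genes to -0.74, so its sign depends on the scaling.

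KRT39 held 360, 323 and 209 ppm in the control pSTAT3 libraries and 246 and 210 in the KD libraries. For BCL9 it held 540, 492 and 389 in control and 511 and 287 in KD cells. The conditions overlapped for both antibodies (log2 difference -0.34, exact permutation p = 0.4 for pSTAT3, and -0.29, p = 0.6 for BCL9, two-sided). KRT15 held 247, 217 and 195 in the control pSTAT3 libraries against 231 and 200 in KD cells, a log2 difference of -0.02 (exact permutation p = 1.0). For BCL9 KRT15 held 452, 757 and 206 in control and 517 and 325 in KD cells, and the control libraries spanned the KD values. With 3 against 2 libraries there are 10 assignments, and 0.1 is the smallest p they can give.

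Some genes had groups that did not overlap. KRT80, a type II keratin at the edge of the 12q13 cluster, held 76.1, 85.5 and 86.6 ppm for pSTAT3 in control and 55.0 and 44.5 in KD cells. Its control mean was 82.7 ± 5.77 (SD, n = 3) and its KD mean 49.7 ± 7.44 (n = 2), a log2 difference of -0.64 with an exact permutation p of 0.1 and a limma adjusted p of 1.00. KRT18 held 43.6, 24.1 and 45.7 for pSTAT3 in control and 22.7 and 22.9 in KD cells, and 62.3, 42.4 and 32.9 against 0 and 22.9 for BCL9. Its log2 difference was -0.51 for pSTAT3 (exact permutation p = 0.2) and -1.59 for BCL9 (exact permutation p = 0.1). KRT14 held 0, 0 and 25.2 for BCL9 in control and 41.0 and 60.1 in KD cells, a log2 difference of 1.97 (exact permutation p = 0.2), while for pSTAT3 its conditions overlapped (24.6, 0 and 25.0 against 13.6 and 18.8). KRT23 held 0, 0 and 3.04 for pSTAT3 in control and 18.7 and 18.8 in KD cells, and 0, 0 and 5.35 against 68.3 and 27.5 for BCL9. KRT23 is a type I keratin, and its limma adjusted p was 0.90 for pSTAT3 and 0.66 for BCL9. KRT14 for BCL9 and KRT23 for both antibodies were listed at 0 in most control libraries and passed the filter of 3 libraries through the KD libraries. The control BCL9 lists held 28690, 24728 and 148755 peak pairs and the KD BCL9 lists 95586 and 336493. The part of list length in these differences was not tested.

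Over all genes tested, groups did not overlap for pSTAT3 in 11.8% with KD higher and 6.62% with KD lower, and for BCL9 in 20.9% and 4.17%. Among tested keratins 9 of 42 (21.4%) were higher without overlap for pSTAT3 and 3 of 42 (7.14%) lower (KRT80, KRT18 and KRT37). The 9 were KRT1, KRT4, KRT23, KRT24, KRT33A, KRT76, KRT78, KRT79 and KRT222, of which 8 held under 10 ppm in every library. For BCL9 3 of 22 (13.6%, KRT13, KRT14 and KRT23) were higher and 1 of 22 (4.55%, KRT18) lower. Both KD pSTAT3 lists (415624 and 493174 peak pairs) were longer than every control pSTAT3 list (at most 374089), and for these weakly bound genes condition and list length cannot be told apart. Of 16 named genes 14 overlapped between conditions for each antibody. No keratin passed a test of whether the KD difference itself differed between the antibodies (lowest limma adjusted p 0.97 for KRT80, 0 of 16306 genes called, 548 at an unadjusted p below 0.05), a test chosen after the data were seen.

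**Figure D5:**
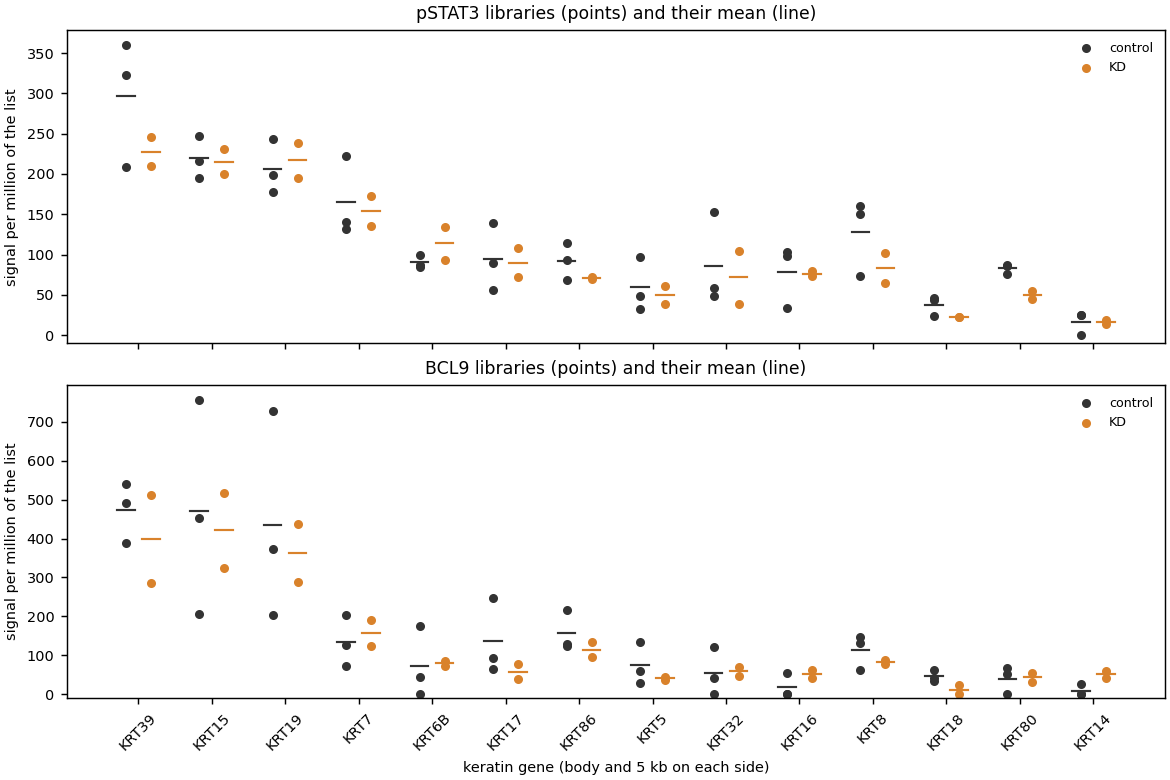
Signal in ppm of the list within 5 kb of 14 keratin genes in pSTAT3 libraries (top) and BCL9 libraries (bottom), control in black and KD in orange. Points are libraries (3 control, 2 KD) and lines group means, and the conditions overlap for most genes but not for KRT80 with pSTAT3, KRT18 with both antibodies or KRT14 with BCL9.

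At the level of regions, 51 of the 62 control pSTAT3 regions near keratins were also KD pSTAT3 regions (82.3%, genome 74.1%), which is 58.6% of the 87 KD regions. For BCL9 13 of 16 (81.2%, genome 66%) were found again, 31% of the 42 KD regions. Of the 16 co-occurring control regions 13 were co-occurring in KD cells too (81.2%, genome 74%), which is 43.3% of the 30 KD ones (genome 42.6%). The 3 others were the KRT5 promoter, an upstream KRT17 region (chr17:39781781-39782325) and a KRT86 intron region (chr12:52698823-52699076). Each kept its pSTAT3 region and had no called KD BCL9 region. At the KRT5 promoter both KD BCL9 libraries still listed peak pairs (10 and 5 tags), but their windows formed no shared region. The KRT86 region had 0 and 7 tags in the KD BCL9 libraries. A region that was not called can therefore still hold BCL9 peak pairs. In KD cells 17 further regions were co-occurring, near KRT7, KRT15, KRT19, KRT80, KRT86, KRT75, KRT5, KRT8, KRT10, KRT23, KRT37, KRT13, KRT16 and KRT17, and 15 of them had a control pSTAT3 region. With lists of equal length 8 members had a co-occurring control region and 6 a KD one, so the direction of the difference between conditions depends on list length.

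The comparison of the antibodies asks where pSTAT3 and BCL9 signal differ. Over all 10 libraries, with condition in the model, 525 of 16306 genes had higher pSTAT3 than BCL9 signal (3.22%) and 402 lower (2.47%) by limma. Among 32 tested keratins 0 were higher and 1 lower, KRT15, with a log2 difference of -0.90 ± 0.26 (SE) and a limma adjusted p of 0.0185. Of its 5 BCL9 values 4 (325 to 757) lay above all 5 pSTAT3 values (195 to 247), and control BCL9 replicate 3 with 206 lay among them. KRT19, which shares its peaks, had a log2 difference of -0.80 ± 0.27 and a limma adjusted p of 0.0566. KRT39 had -0.70 ± 0.24 (limma adjusted p 0.0708). KRT16 went the other way with 1.47 ± 0.50 (limma adjusted p 0.0566), and it was listed at 0 in control BCL9 replicates 1 and 2. The KRT15 call was lost without control pSTAT3 replicate 2 or 3, KD pSTAT3 replicate 2, control BCL9 replicate 2 or KD BCL9 replicate 1 (log2 difference -0.66 to -0.89, limma adjusted p 0.0514 to 0.113). It was also lost without the filter on listed libraries (-0.90, limma adjusted p 0.215) and after median centring (-1.23, limma adjusted p 0.268). The signal is a share of each list, and BCL9 lists were shorter on average. With lists of equal length the difference was larger, -1.28 for KRT15 (limma adjusted p 0.00725) and -1.20 for KRT19 (limma adjusted p 0.0123), in a fit that called 575 of 3600 genes higher and 745 lower.

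In the anchorage and regulator list the signal tests gave calls between the antibodies only. In it 0 of 23 genes were called in either comparison of conditions, where at most 0.0346% of all genes tested were called in a direction. For the antibodies 2 of 23 were higher with pSTAT3 (PPL, periplakin of the cornified envelope, and the transcription factor GRHL1), against 3.22% of all genes tested. In the other direction 1 of 23 was lower (TP63, the master regulator of basal epithelium), against 2.47%. These shares rest on a small list and were not tested.

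Several keratin genes are near-identical copies (KRT6A, KRT6B and KRT6C; KRT14, KRT16 and KRT17 with pseudogene copies; KRT81, KRT83 and KRT86), and the sources used here do not say how reads shared between copies were placed, so values within these groups are uncertain. The annotated KRT86 gene also spans KRT81 and overlaps KRT7.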

How the data were processed

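ChIP-exo libraries were sequenced and peak pairs were called per library by the authors. The deposited lists give the borders of each peak pair on hg19 and a signal, which in each library divides by 1 fixed unit into whole tags (tolerance 0.01). The submitters' processing notes name bcl2fastq and hg19, and which aligner was run is not given in sources used here. The deposited names give 1 sequencing run for control replicate 1 of each antibody and 3 for the other libraries. The control and KD cells were cultured as biological replicates in separate plates. The IgG library was not analysed here.

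Members, role lists, tests and named genes were chosen with earlier results of these data known. Named genes were those with a co-occurring control region and 13 classical keratins, and others were given by counts of their role list. Gene positions came from GENCODE release 44 lifted to hg19, and no listed peak pair ended beyond the reference chromosomes. Windows of 100 bp around midpoints that shared at least 1 bp were merged across the libraries of a group. Merged regions were kept if they held windows of at least 2 of 3 control or 2 of 2 KD libraries. Conditions were compared on log2(ppm + 10), ppm being parts per 1000000 of the signal of a list, with limma 3.58.1 in R 4.3.3 and Benjamini-Hochberg adjustment over all genes tested (threshold 0.05), and single genes by exact two-sided permutation. The antibodies were compared over genes listed in at least 5 of 10 libraries. In simulated data 90% of 200 genes changed by a log2 of 4 were recovered for the pSTAT3 comparison (17348 genes) and 48% for BCL9 (12065 genes). Deviations of single genes from their group means were little correlated between same-numbered libraries (correlations -0.0513 to 0.0945 over 16306 genes). A shift shared by all genes of a library does not enter these correlations, so they cannot exclude a shared batch. The labels do not mark one, and the replicate block was used as an alternative only. Alternatives changed the list length, reach, regions, pseudocount, filter, scaling and libraries. The interaction of antibody and KD and the 2 extra AP-1 windows were added after seeing the data. Scripts ran in Python 3.11.15 (matplotlib 3.10.9, scipy 1.17.1, pandas 2.3.3, numpy 2.4.6).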

Additional observations from a re-analysis of the deposited data

How the results depend on the processing

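The number of keratin genes with a region depended on how a region was defined. With lists of equal length the counts were 14 for control pSTAT3, 7 for KD pSTAT3, 9 for KD BCL9 and 6 for co-occurring KD regions. The shares of all genes at equal length are given above. Requiring every control library gave 4 for control BCL9 and 4 for co-occurring control regions. Accepting any library gave 50, 31 and 22 for control pSTAT3, BCL9 and co-occurring regions and 53, 49 and 28 in KD cells. Peak pairs of 9 or more tags gave 13 for KD BCL9 (3233 of all genes). Leaving out libraries in turn gave 17 to 22 for control pSTAT3, 4 to 9 for control BCL9 and 4 to 10 for co-occurring control regions. It gave 48 to 50 for KD pSTAT3, 27 to 46 for KD BCL9 and 17 to 23 for co-occurring KD regions. A KD antibody then has 1 library and any region in it counts, while control regions still need 2 libraries. The KD ranges are therefore not comparable with the control ranges. The counts of called keratins in the antibody comparison were 4 of 14 with equal length (1320 of 3600 genes called) and 5 of 14 by best rank (1137 of 4012). They were 0 of 55 without a filter (331 of 20162) and 0 of 32 with median centring (304 of 16306). Leaving out a library gave 0 to 4 called keratins, with 565 to 1150 genes called. In the last case 0 came from leaving out control pSTAT3 replicate 2 or 3, KD pSTAT3 replicate 2 or KD BCL9 replicate 1, 2 other keratins (KRT6A and KRT6B, higher) were called without control BCL9 replicate 2, and 4 without control BCL9 replicate 3. No keratin was called between conditions in any fit without a library (0 to 0).

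The replicate block, by numbers that do not mark a shared batch in the labels, called 1 keratin (KRT36) for BCL9 between conditions, with 1559 genes called in place of 1. Between the antibodies it called 4 keratins (KRT39, KRT15 and KRT19 lower, KRT16 higher), with 1040 genes called in place of 927. It called 0 for pSTAT3 between conditions. KD cells have no replicate 3, so between conditions the block fits control replicate 3 by its own term and that library does not enter the difference. Few libraries are then left to estimate the spread. The part of this in the changes was not tested. Of 100 alternative values for the main counts 68 kept within 1.5 times or were equal. These include the counts of keratins called between conditions, which were 0 and stayed 0 in all alternatives except the replicate block for BCL9. The count of keratins called between the antibodies moved further in most alternatives. Library depth is unknown. With 2 KD libraries an antibody the BCL9 comparison recovered fewer of the simulated increases than the pSTAT3 one.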
